A study of Homo sapiens with 2 samples.

Results

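The cells described here were the 438 control tumour cells with the highest VGF level, out of 4385 control cells and 7057 cells in the whole series. They were chosen in the control library among barcodes with at least 15000 UMIs (unique molecular identifiers, each standing for 1 captured RNA molecule) and at most 20% mitochondrial UMIs, as the top 10% by VGF level. The members were chosen by their VGF UMIs per 1000000 UMIs of the cell, written CPM. They were compared with the 752 control cells (17.1%) that held 0 VGF UMIs. VGF chose both groups, so its levels are a description and no evidence for anything else.

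UMUC3 is a human bladder carcinoma line. Its cells were placed in the bladders of C57 nude mice and left there for 14 days, and nude mice lack a thymus and so most T cells. The series holds 1 library of control cells and 1 of cells with GANAB knockdown, both from the same line and both made with droplet 3' RNA sequencing, and 10000 cells were loaded for each. GANAB encodes the catalytic subunit of glucosidase II, an enzyme that trims sugars on new glycoproteins in the endoplasmic reticulum.

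VGF encodes a secreted precursor of the granin family that neurons and endocrine cells pack into dense core granules and cut into smaller peptides. It was first known as a gene induced by nerve growth factor, and its promoter holds a cAMP response element, the sequence bound by CREB-family factors. It is also expressed in some tumours outside the nervous system.

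The VGF gene lies at chr7:101162509-101165593 on the minus strand (GENCODE, GRCh38). The 250 bases before its RefSeq start are shown because a list of CREB targets is examined further on, with the cAMP response element TGACGTCA in capitals (RefSeq, GRCh38.p14, chr7:101165570-101165819, minus strand).
VGF promoter: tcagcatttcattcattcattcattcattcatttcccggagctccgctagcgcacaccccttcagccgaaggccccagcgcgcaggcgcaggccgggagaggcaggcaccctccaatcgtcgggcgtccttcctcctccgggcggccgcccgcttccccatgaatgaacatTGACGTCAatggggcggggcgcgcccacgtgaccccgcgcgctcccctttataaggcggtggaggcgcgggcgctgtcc
The RefSeq start lies inside the GENCODE gene, so 24 of the shown bases overlap that gene. The element begins 79 bases before the RefSeq start. Its 8 letters read the same on both strands and occur in 482 of 27305 RefSeq promoters of this length (1.77%), and in 219 of the 6317 measured genes with a promoter in that table (3.47%). The match is a description and shows no binding.

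Each group of cells in the library is 1 sample, so no replicate check exists and no test was made. UMIs were summed over the cells of a group. Intervals are 95% and cover counting error only. A gene was measured if it reached 10 CPM in either group, and it was called higher or lower if the ratio was at least 1.5 with an interval excluding 1, which is a rule of size. Log2 ratios are given as VGF-high over zero-VGF.

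VGF was spread over a wide range above 0, and its number of modes was not tested. Its level in the 438 cells ran from 790 CPM through a median of 1256 to 8270 CPM, or from 14 through 55 to 256 UMIs per cell. The median over all control cells was 79.0 CPM. The 438 cells held 28501 of the library's 56000 VGF UMIs in cells (50.9%). The 3 cells just inside the threshold had 789.7, 793.4 and 793.6 CPM and the 3 just outside had 789.3, 787.4 and 783.8 CPM, so no gap marks the edge. The control cells between the extremes were cut into 3 bands of 1065 cells with 31.6, 94.9 and 371.6 CPM. Near-empty barcodes with 10 to 100 UMIs carried 315 CPM of VGF from free RNA, above the summed level of the 2 lower bands. A count of 0 over the zero-VGF cells allows up to 0.105 CPM, from 3 counts.

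**Figure D1:**
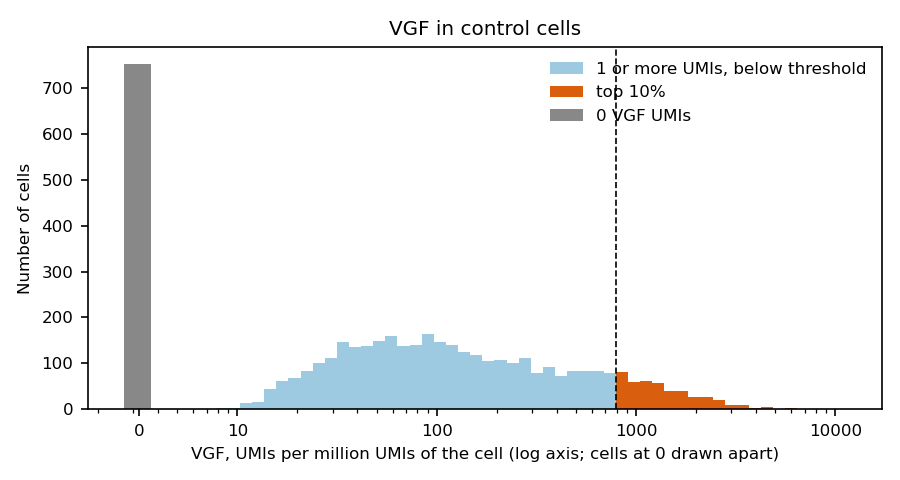
Number of control cells (vertical axis) by VGF level in CPM (log horizontal axis), with the 752 cells at 0 drawn apart, cells below the threshold in light blue and the 438 VGF-high cells in orange. The dashed line is the threshold of 789.7 CPM, and the distribution runs through it without a gap.

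Depth and state differed between the groups. The median cell of the VGF-high group had 41217 UMIs and 5807 detected genes, against 34584.5 UMIs and 5240 genes in the zero-VGF group, and 1.47% against 1.36% mitochondrial UMIs. Cells below the library median both for S phase genes and for genes of G2 and M, called non-cycling here, were 50.2% of the VGF-high cells and 65.8% of the zero-VGF cells. The 3 bands between had fewer, at 38.3%, 36.8% and 37.2%, and all control cells that were not VGF-high had 42.8%. VGF-high cells were thus more often cycling than zero-VGF cells but less often than the other control cells. Within the VGF-high cells that share went from 41.1% in the lower VGF 146 cells through 46.6% to 63.0% in the upper 146. Cells with the transcripts SPANXB1 and TMEM132D-AS1 above MAN1A1, called subclone-like, were 1 of 438 VGF-high cells and 110 of 752 zero-VGF cells (14.6%). The libraries shared 4 cell barcodes, of which 0 were in these 2 groups. No doublet caller was run. The part of depth, cycling and subclone-like cells in each result was not tested, but values without such cells are given for several results.

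RNA of most UMUC3 markers was present in both groups, which alone does not prove the label of tumour cells. Markers of other cell types could not test it, since host cells would be mouse cells and mouse reads were not analysed. Of 12 UMUC3 markers, 11 were measured, with a summed level of 23650 CPM in VGF-high and 22783 CPM in zero-VGF cells. Of these, CAV1 (261 against 416 CPM) and AXL (35.01 against 62.2 CPM) were called lower and 0 were called higher. KRT81 was under 1 CPM in both. Human markers of other cells were low in both groups, and only THY1 (14.8 and 22.1 CPM) and CD68 (24.8 and 22.3 CPM) reached 10 CPM. The list sums in VGF-high against zero-VGF cells were 29.1 and 29.02 CPM for 7 fibroblast genes. They were 24.9 and 22.4 CPM for 6 macrophage genes, nearly all of it CD68. Endothelial markers summed to 0.102 and 0.211 CPM, T and NK cell markers to 0.051 and 0.141 CPM, and B cell markers to 0.255 and 0.281 CPM. Neutrophil genes summed to 4.54 and 0.527 CPM, erythroid genes to 2.85 and 0.703 CPM and urothelial genes to 0.611 and 2.88 CPM. The 6 neuroendocrine markers summed to 7.08 and 3.97 CPM, with INSM1 and NEUROD1 at 0 in both groups and with SYP, a synaptic vesicle protein gene, at 6.52 and 3.48 CPM.

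GANAB stood at 109.8 CPM in the VGF-high and 127 CPM in the zero-VGF control cells, a log2 ratio of -0.21 that did not meet the size rule. In the knockdown library it was 48.9 CPM in the top 10% by VGF and 39.8 CPM in the cells without VGF.

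Of 7849 genes measured in the control library besides VGF, 398 were higher (5.07%) and 411 lower (5.24%) in VGF-high cells. The median log2 ratio over all measured genes was 0.08. Without subclone-like cells 429 were higher (5.48%) and 393 lower (5.02%). Non-cycling cells gave 430 of 7697 higher (5.59%) and 447 lower (5.81%), and cycling cells 496 of 7853 higher (6.32%) and 440 lower (5.6%). Over all 3947 control cells that were not VGF-high, 136 of 7722 genes were higher (1.76%) and 208 lower (2.69%). The VGF-high cells had more MAN1A1, KYNU and NR4A2 and less class I MHC, interferon-induced and matrix RNA. The 15 most increased and 15 most decreased abundant genes carry most of the account that follows.

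KYNU, which encodes kynureninase of tryptophan breakdown, had the highest ratio of the named genes. It was 66.1 CPM in VGF-high and 12.1 CPM in zero-VGF cells (log2 2.45). After each cell was thinned to 15000 UMIs to equalise depth, 50.7% of VGF-high and 12.9% of zero-VGF cells held a KYNU UMI, against 73.3% and 23.4% before thinning. MAN1A1, a Golgi mannosidase that trims N-glycans, was 170.2 against 40.1 CPM (log2 2.09), with per-cell medians of 139.9 and 13.5 CPM. MAN1A1 is part of the subclone-like definition, and without those cells its log2 ratio was 1.85. RGMB, a co-receptor for bone morphogenetic proteins, was 63.3 against 15.1 CPM, and BCL2A1, an inhibitor of apoptosis of the BCL2 family, 80.9 against 20.9 CPM.

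NR4A2 is an immediate early nuclear receptor that cAMP signalling induces. Its levels were 181.0 CPM in VGF-high and 83.4 CPM in zero-VGF cells, a log2 ratio of 1.12. Its per-cell median was only 21.3 CPM in VGF-high cells, while 10% of them exceeded 581 CPM, so its level was uneven among them. CREB5, a bZIP factor of the CREB family, was 71.8 against 29.2 CPM, and DLC1, a RhoA GTPase-activating protein, 51.2 against 20.2 CPM. POLR3G, an RNA polymerase III subunit, was 81.2 against 37.0 CPM.

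MME encodes neprilysin, a membrane peptidase that cleaves kinins, enkephalins and other peptides. It was 181.2 CPM in VGF-high and 86.4 CPM in zero-VGF cells (log2 1.07), with per-cell medians of 119 and 36.9 CPM. MME was not called over all control cells that were not VGF-high, nor with all cells thinned to 15000 UMIs and grouped anew. Of the top 438 control cells by MME, 68 were VGF-high cells (15.5%), and 31 zero-VGF cells were among them (4.12% of that group). TNNT1, slow skeletal troponin T, was 497 against 238 CPM, and the cancer-testis antigen MAGEA4 182 against 79.9 CPM. MAGEA10 (80.5 against 45.6 CPM) and MAGEC2 (60.9 against 32.4 CPM) were also higher among 5 measured members of a MAGE list chosen after values were seen. MAGE genes have near-identical copies, so reads may be split among them. MFGE8, MICAL3 and MCM6 were also among the 15, with log2 ratios of 1.22, 1.196 and 1.05.

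The lower genes were led by G0S2, an inhibitor of the lipase ATGL. It was 7.80 CPM in VGF-high and 108.6 CPM in zero-VGF cells (log2 -3.80). The median cell of both groups was at 0, and after thinning 4.6% of VGF-high and 28.9% of zero-VGF cells held a UMI. TGM2, a protein-crosslinking transglutaminase, was 6.11 against 70.1 CPM (log2 -3.51), and the lysophospholipid acyltransferase LPCAT2 8.92 against 65.6 CPM (log2 -2.88). SOX4, a developmental transcription factor, was 23.4 against 114.6 CPM. The serine protease PRSS23 was 30.7 against 124 CPM. SMIM3, TSPAN9 and ZBTB20 were lower by log2 ratios of -2.08, -1.65 and -1.63.

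Class I MHC genes, which display peptides to CD8 T cells, were lower as a group. HLA-B per cell ran from 0 through a median of 18.8 to 874 CPM in VGF-high cells and from 0 through 373 to 5521 CPM in zero-VGF cells. The summed levels were 44.2 and 537 CPM, a log2 ratio of -3.60 (interval -3.70 to -3.50). After thinning, 31.5% of VGF-high and 93.9% of zero-VGF cells held an HLA-B UMI. HLA-C was 236 against 657 CPM and B2M, the shared light chain, 533 against 1579.7 CPM. Of 16 measured genes of an MHC class I and immunoproteasome list chosen after values were seen, 10 were lower and 0 higher, with a median log2 ratio of -0.85 beside 0.08 over all measured genes. The immunoproteasome subunits PSMB8 (44.8 against 105.5 CPM) and PSMB9 (71.7 against 148 CPM) were among the 10. The HLA genes are close relatives, so their counts may be shared among them.

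Type I interferon response genes followed the same direction. Of 17 measured genes, 12 were lower and 0 higher, with a median log2 ratio of -1.26. BST2, which tethers budding viruses, was 0.459 against 14.2 CPM and ISG15, a ubiquitin-like modifier, 125 against 298 CPM. IFI6 (28.8 against 108.0 CPM), IFITM3 (391 against 825 CPM) and the DNA sensor IFI16 (7.75 against 52.4 CPM) were also lower. Without subclone-like cells, 11 of 15 were lower and 1 was higher (median -1.23). In non-cycling cells 15 of 20 were lower and 1 was higher, and in cycling cells 5 of 10 were lower, with medians of -1.73 and -0.57.

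Matrix genes were lower too, but that depended on the cells counted. Of 10 measured extracellular matrix genes, 5 were lower and 0 higher, with a median log2 ratio of -0.85. SPARC was 30.7 against 114 CPM, FN1 2.45 against 11.7 CPM and TNC 10.6 against 38.7 CPM. Without subclone-like cells the list median was -0.45, with 4 of 9 genes lower and 0 higher. Within cycling cells the list median was 0.08, with 1 of 8 genes higher and 3 lower. Of 14 mesenchymal genes, 7 were lower and 1 higher, and the higher gene was ZEB2 (12.3 against 5.31 CPM), named after its value was seen. The mesenchymal median was -0.46, and without subclone-like cells it was -0.18, with 6 of 13 lower and 1 higher.

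Few other genes of secretory granules were measured. Of 15 listed granins and granule cargo genes, 4 were measured. STC1, the secreted hormone stanniocalcin, was 35.2 against 9.63 CPM and higher. PCSK1N, an inhibitor of the prohormone convertase PCSK1, was 32.0 against 51.0 CPM and lower. NUCB2 stood at 115 and 109.0 CPM and ADM at 17.9 and 14.2 CPM, neither past the size rule. Of 6 measured exocytosis genes, RAB27A alone was called, at 4.69 against 10.3 CPM. Of 5 measured genes of a list of kinin genes, neprilysin and partners, MME and C15orf48 (57.6 against 31.3 CPM) were higher. ECE1 (33.5 against 55.3 CPM) and the tetraspanin CD82 (45.3 against 124 CPM) were lower, while the bradykinin receptor BDKRB1 was 51.5 against 49.6 CPM.

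CREB and cAMP target genes did not move together. Of 11 measured, 3 were higher and 0 lower, with a median log2 ratio of -0.07. In cycling cells 4 of 10 were higher and 0 lower (median 0.50), and in non-cycling cells 3 of 11 and 0 (median -0.08). CREM, a cAMP-responsive factor, was 64.4 against 36.1 CPM, and PDE10A, a phosphodiesterase named after its value was seen, 12.8 against 7.06 CPM. The third was NR4A2. FOS stood at 290 and 305 CPM, NR4A1 at 39.8 and 59.1 CPM and DUSP1 at 461 and 668 CPM, none past the size rule.

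Immediate early genes went both ways, with 5 of 17 higher and 3 lower. EGR1 was 212 against 129.6 CPM, KLF6 614 against 359 CPM and BATF3 17.7 against 7.62 CPM. Among growth factors, the EGFR ligand EREG was 68.2 against 36.0 CPM and NRG1, a ligand of ERBB3 and ERBB4, 7.24 against 30.4 CPM. VEGFA was 11.5 against 34.7 CPM and CSF1 6.78 against 23.7 CPM, both lower. Of 8 measured plasminogen and matrix protease genes, 3 were higher and 2 lower. TIMP1, an inhibitor of matrix proteases, was 889.8 against 482 CPM. The proteases MMP14 (72.8 against 43.5 CPM) and ADAM12 (35.01 against 19.4 CPM), named after their values were seen, were also higher. PLAU (518 against 866 CPM) and MMP2 (11.8 against 41.4 CPM), proteases as well, were lower.

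Cell cycle genes depended on the cells counted. Of 37 measured S phase genes, 12 were higher and 1 lower, with a median log2 ratio of 0.42. The reference matters here, as the summed S phase list had per-cell medians of 1196 CPM in VGF-high and 718 CPM in zero-VGF cells. It was 1489 CPM in all control cells that were not VGF-high. In cycling cells 3 of 42 were higher and 1 lower (median 0.15), near the 6.32% of all genes called higher there. In non-cycling cells 4 of 22 were higher and 0 lower (median 0.34). MCM5, a helicase subunit, was 61.2 against 32.3 CPM, and PCNA stood at 226 and 173 CPM without meeting the size rule. Of 52 genes of G2 and M phase, 0 were higher and 2 were lower (median -0.01), but the subsets went opposite ways. In cycling cells 0 of 52 were higher and 20 lower (median -0.45), and in non-cycling cells 6 of 25 were higher and 0 lower (median 0.30). These subsets were themselves cut by the levels of both lists. Of 22 cholesterol synthesis genes, 3 were higher, among them HMGCS1 (399 against 226 CPM), which makes HMG-CoA. Of 11 genes of glucosidase II and the calnexin cycle, 28 ribosomal protein genes and 11 cytosolic heat shock genes, 0 were called in either direction.

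**Figure D2:**
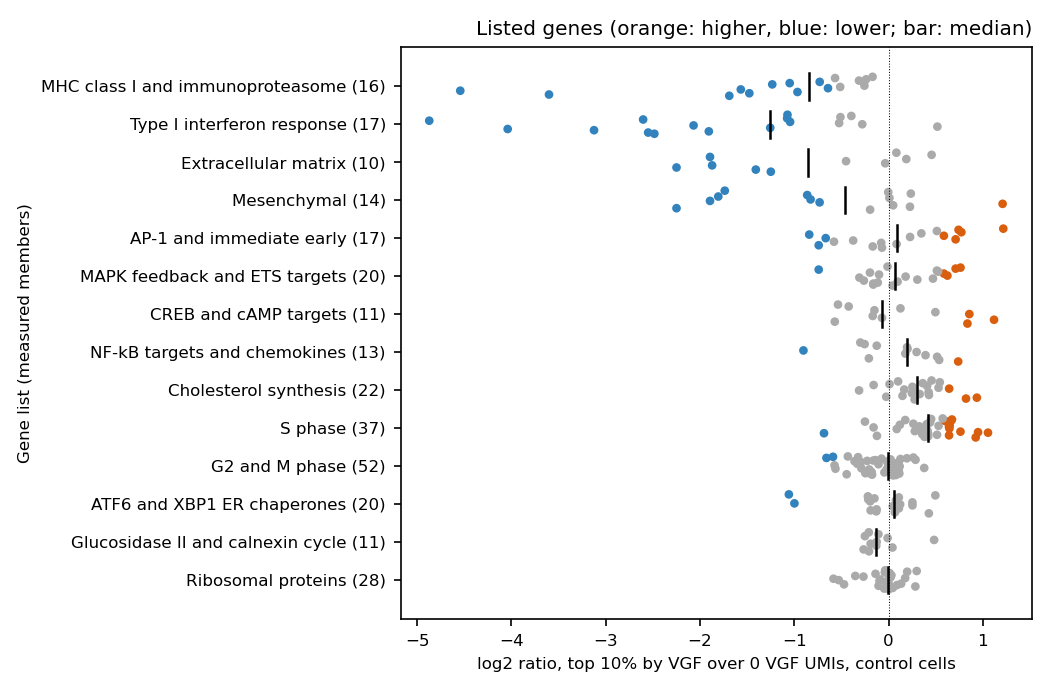
Log2 ratio of summed CPM, VGF-high over zero-VGF control cells (horizontal axis), for each measured gene of 14 lists (vertical axis, number of genes in brackets), in orange where higher, blue where lower and grey where not called, with the median as a black bar. MHC class I, interferon and matrix medians lie at -0.85, -1.26 and -0.85, and ribosomal genes lie around 0.

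No measured gene near VGF met the size rule. Of 17 measured genes listed around VGF on chromosome 7, 0 were called, with a median log2 ratio of 0.11. Over all measured genes 5.07% were higher and 5.24% lower, so few calls would be expected among so few genes. Neighbours under 10 CPM in both groups are left out, such as NAT16 (1.63 against 0.105 CPM). Within 2 Mb on either side, 47 were measured and 0 called, with a median of 0.13. AP1S1, an adaptor subunit of vesicle traffic, was 218 against 152 CPM.

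Many genes were graded with VGF. Of the 398 higher genes, 201 (50.5%) had a higher level at every step over the 5 bands, against 734 of all 7849 measured genes (9.35%). Of the 411 lower genes, 234 (56.9%) had a lower level at every step, against 523 (6.66%). These counts use the contrast that chose the genes and are a description. HLA-B went from 537 through 389, 237 and 114 to 44.2 CPM, and KYNU from 12.1 through 18.4, 40.3 and 59.0 to 66.1 CPM. G0S2 took another course, at 108.6, 191.0, 178 and 71.4 CPM before 7.80 CPM. MME was already higher in the lowest positive band, at 86.4, 142, 168, 173 and 181.2 CPM.

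Set against the band just below the threshold, few genes stood apart. Of 7648 measured, 23 were higher (0.301%) and 50 lower (0.654%). NR4A2 was 181.0 against 106.3 CPM, DLC1 51.2 against 33.0 CPM and ZBTB10 135 against 88.2 CPM. G0S2 was 7.80 against 71.4 CPM, TGM2 6.11 against 25.6 CPM and HLA-B 44.2 against 114 CPM. BCL2A1 stood at 80.9 and 81.4 CPM and POLR3G at 81.2 and 83.3 CPM, so those genes had reached their level in the band below.

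**Figure D3:**
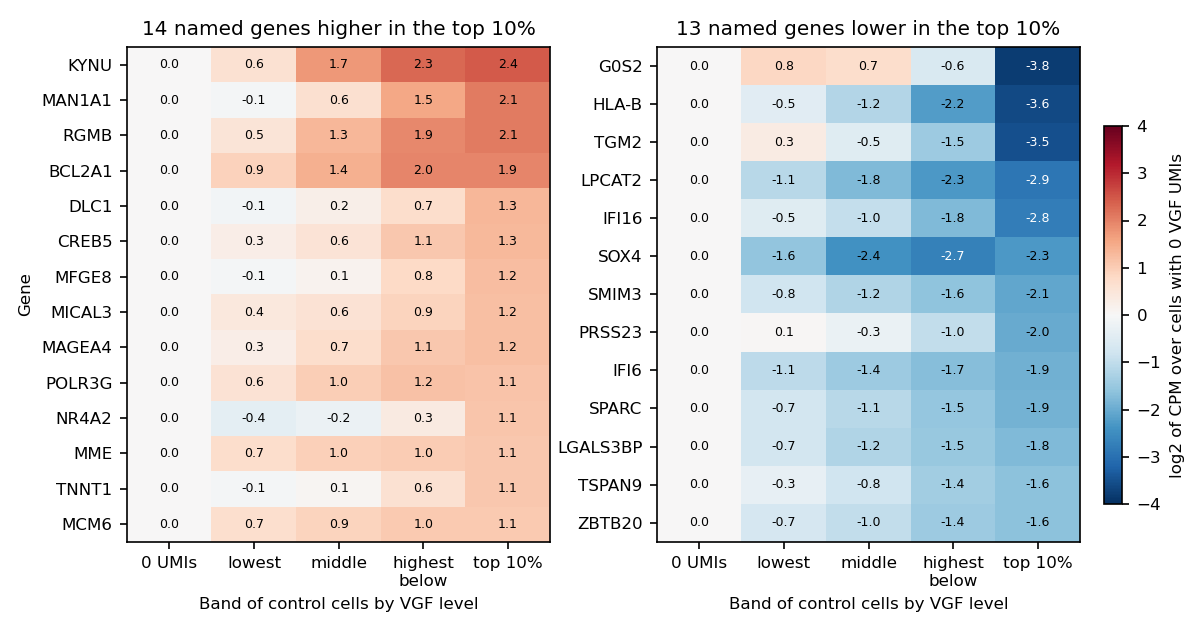
Log2 of CPM over the cells with 0 VGF UMIs (colour and printed value) for 14 higher and 13 lower named genes (vertical axis) in 5 bands of control cells by VGF level (horizontal axis). Most genes change gradually across the bands, while G0S2 lies above the zero-VGF level in the 2 lower positive bands and at -3.8 in the VGF-high cells.

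Differences also followed position in the genome. The measured genes were ordered by start and cut into 184 windows of 40 genes, whose median log2 ratios ran from -0.50 through 0.08 to 0.44. In 4 places at least 2 neighbouring windows passed 0.3 in size in the same direction, a rule set after the values were seen. On chromosome 2, 160 genes starting between 97646040 and 190189735 had a median of 0.41, and 143 of them lay above 0. On chromosome 14, 120 genes starting between 68874143 and 105009573 had a median of 0.32, and 111 lay above 0. That shift was not confined to the stretch, as all 287 measured genes of chromosome 14 had a median of 0.31. On chromosome 12, 120 genes between 43758944 and 57931528 had a median of -0.40, and 115 lay below 0. On chromosome 3, 80 genes between 3126916 and 39051998 had a median of -0.36, and 70 lay below 0. The other 7357 genes, which include the rest of chromosome 14, had a median of 0.08, with 61.0% above 0.

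The stretches kept their sign without subclone-like cells and in non-cycling cells, and their medians were nearer 0 in the lowest positive VGF band and in the knockdown library, where the one on chromosome 2 turned to below 0. Without subclone-like cells the medians were 0.41, 0.32, -0.35 and -0.39 for chromosomes 2, 14, 12 and 3. In non-cycling cells they were 0.35, 0.25, -0.33 and -0.32. In the lowest positive VGF band over zero-VGF cells they were 0.03, 0.07, -0.04 and 0.00. In the band just below the threshold over zero-VGF cells they were 0.32, 0.29, -0.33 and -0.24, so the shifts were not particular to the VGF-high cells. In the knockdown library they were -0.04, 0.02, -0.02 and -0.13. KYNU, NR4A2 and MCM6 lie inside the stretch on chromosome 2. The 4 stretches together hold 57 of the 398 higher and 53 of the 411 lower genes. Higher genes were 24.4% and 14.2% of the stretches on chromosomes 2 and 14, against 4.64% of all other genes. Lower genes were 25.8% and 23.8% of those on chromosomes 12 and 3, against 4.87% of all other genes. The stretches were picked by these ratios, so the shares are a description.

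Cell by cell, the lower stretches split the control cells. The share of a cell's UMIs from the genes of the lower stretches on chromosomes 3 and 12, leaving out genes past the size rule, had a median of 2.32% in VGF-high and 3.18% in zero-VGF cells. The stretches were picked on this contrast, so that difference is a description. Over all control cells the share had 2 peaks, with 573 cells between 2.2% and 2.4%, 354 between 2.6% and 2.8% and 822 between 3.0% and 3.2%. A cut at 2.7% was set after the values were seen, and 778 of 4385 control cells lay within 0.2 of it. Since the stretches were picked on this contrast and the cut on seen values, the shares of control cells that follow are a description too. Under 2.7% lay 366 of 438 VGF-high cells (83.6%) and 85 of 752 zero-VGF cells (11.3%). The 3 bands between had 13.6%, 25.5% and 62.3%. Of all 1532 control cells under 2.7%, 23.9% were VGF-high, against 2.52% of the 2853 cells above, and VGF summed to 519 and 119.8 CPM. In the knockdown library 12.4% of the top VGF cells and 12.7% of cells without VGF lay under 2.7%. Among those top cells the lower, middle and upper 89 by VGF had 7.87%, 7.87% and 21.3%, the last from 19 cells. Subclone-like cells, which differ in number between the libraries, had 2.48% in control and 10.4% in knockdown. What sets the share was not tested.

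**Figure D4:**
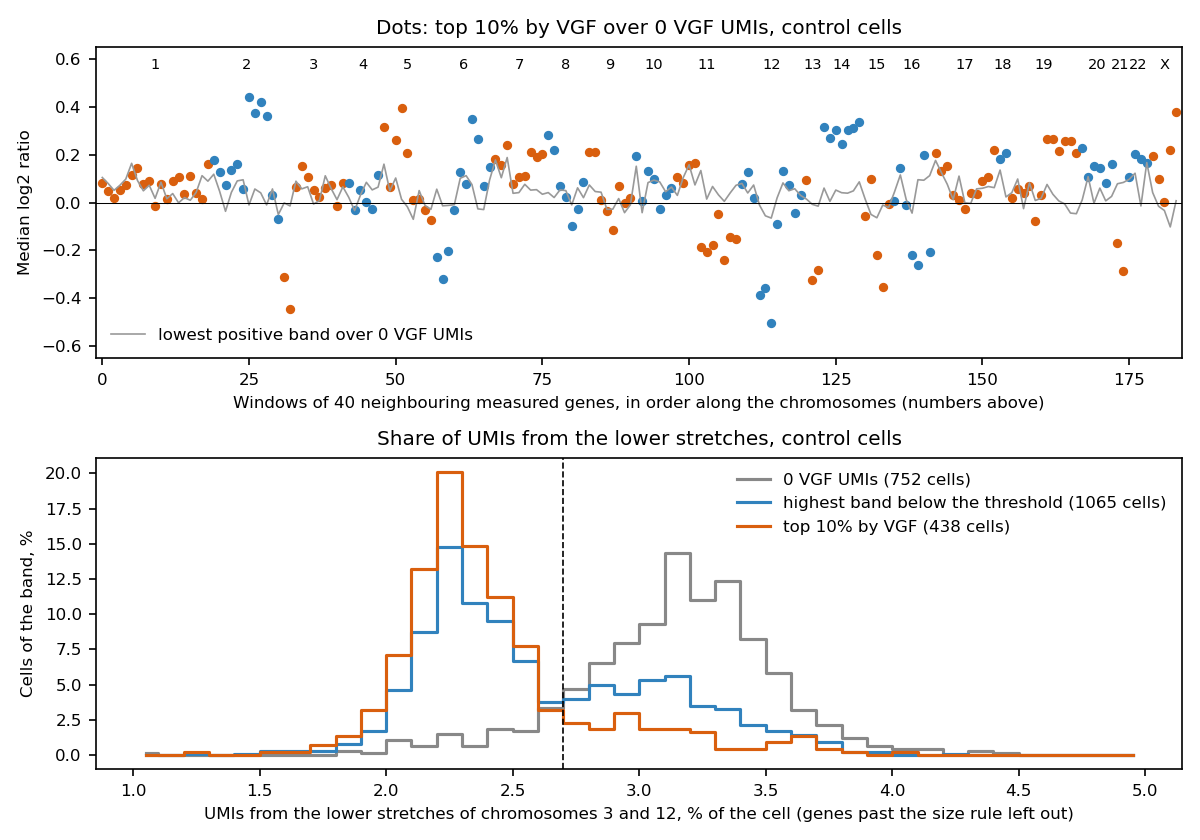
Upper panel, median log2 ratio of VGF-high over zero-VGF control cells (vertical axis) in windows of 40 neighbouring measured genes in order along the chromosomes (horizontal axis, colours alternate by chromosome), with the lowest positive VGF band as a grey line. Lower panel, percent of cells of a band (vertical axis) by the share of UMIs from the lower stretches (horizontal axis, percent), where 83.6% of VGF-high and 11.3% of zero-VGF cells lie left of the dashed line at 2.7%.

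Within each of these classes the contrast was repeated. Under 2.7%, 366 VGF-high and 85 zero-VGF cells gave 561 of 8245 measured genes higher (6.8%) and 1201 lower (14.6%). From 2.7% up, 72 VGF-high and 667 zero-VGF cells gave 180 of 7673 higher (2.35%) and 410 lower (5.34%). Of the 30 named genes, 27 kept their call in the first class and 24 in the second. MAN1A1, CREB5 and NR4A2 were the genes not called under 2.7%. MME, MICAL3, POLR3G, MCM6 and ZBTB20 were among those not called from 2.7% up. HLA-B was 26.9 against 560 CPM under 2.7% and 142 against 535 CPM above. BCL2A1 had log2 ratios of 2.83 and 0.65, and MCM6 of 0.94 and -0.02. NR4A2 was not called under 2.7% (188 against 136 CPM) and was called above (142 against 77.6 CPM). The interferon list had 17 of 19 genes lower in the first class and 11 of 17 in the second, with 1 higher in each. The CREB and cAMP list had 1 of 13 higher and 5 lower in the first class (median -0.37). In the second class 3 of 10 were higher and 0 lower (median 0.38). S phase genes were higher in 25 of 37 under 2.7%, while above it 0 of 34 were higher and 7 lower. Genes of G2 and M were higher in 18 of 51 and lower in 1 under 2.7% (median 0.46), and above it 0 of 52 were higher and 33 lower (median -0.71). The difference between the classes was not tested.

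The same contrast was made in the knockdown library, which the choice of cells did not use. VGF was far lower there: the top 10%, 267 cells, began at 63.9 CPM with a median of 6 UMIs, and 4 knockdown cells reached the control threshold. The libraries also differed in make-up, with 83.1% subclone-like cells in the knockdown and 5.52% in the control library. They were 79.0% of the top knockdown cells and 83.3% of those without VGF. Subclone-like control cells had 56.1 CPM of VGF. The part of this make-up in differences between the libraries was not tested. Of 7873 measured genes 1325 were higher (16.8%) and 1081 lower (13.7%). Only 11.6% of the top cells were non-cycling, against 52.1% of the 1636 cells without VGF, and their median depths were 51704 and 35254 UMIs. S phase genes were higher in 35 of 37 there and G2 and M phase genes in 38 of 49. Of the 398 genes higher in control, 300 were measured in the knockdown library, where 125 were higher and 22 lower. Of the 411 lower genes, 380 were measured, 197 were lower and 24 higher.

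MME, BCL2A1, POLR3G, RGMB and MCM6 of the 15 named higher genes were also higher in the knockdown cells, where MME was 31.9 against 2.78 CPM. NR4A2 was 72.9 against 77.3 CPM there and TNNT1 337 against 371 CPM, neither called. KYNU and MAN1A1 were under 10 CPM in both knockdown groups and so not measured. In subclone-like control cells they stood at 4.41 and 6.58 CPM, and MAN1A1 is part of that definition. Of the 15 named lower genes, 11 were lower, such as LPCAT2 (27.3 against 129 CPM) and HLA-B (402 against 798 CPM). The interferon list had 21 of 25 lower and 0 higher, and the MHC class I list 7 of 16 lower and 0 higher. DLC1 and G0S2 were called in the opposite direction, and TGM2 was 102 against 98.4 CPM. Whether the libraries differ in these ratios was not tested, with 1 library each.

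**Figure D5:**
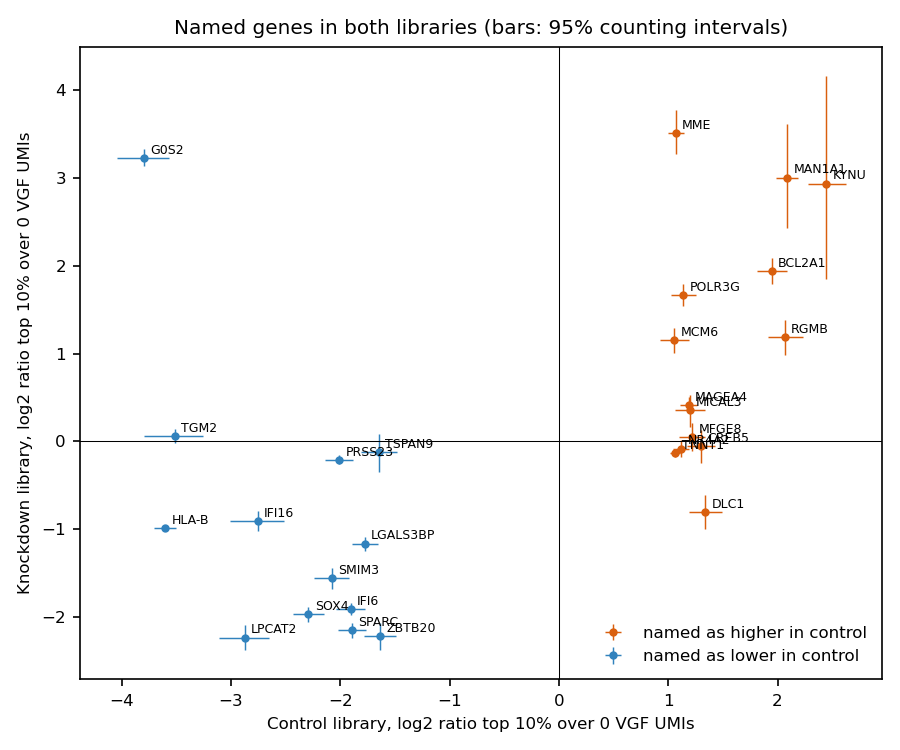
Log2 ratio of the top 10% by VGF over cells with 0 VGF UMIs in the control library (horizontal axis) and in the knockdown library (vertical axis) for 27 named genes, with 95% counting intervals as bars. Most lower genes lie below 0 in both libraries, G0S2 lies at 3.23 in the knockdown library, and KYNU and MAN1A1 rest on few knockdown UMIs.

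The overlap of VGF-high cells with other extreme cells differed by set, beside the 10% that VGF-high cells make up of all control cells. It was 15.5% for the cells highest in MME, given above. Among the top 438 control cells by summed CXCL chemokines, 38 were VGF-high (8.68%), by the hypoxia and glycolysis list 40 (9.13%) and by the S phase list 37 (8.45%). By EDIL3, TNC and KITLG it was 27 (6.16%), while 17.4% of zero-VGF cells were in that set, and by the G2 and M phase list 22 (5.02%). After thinning, VGF counts had a variance of 15.4 times their mean, rank 32 of 7452 genes. Among 727 genes within 2-fold of its mean, it ranked 9, and their median was 1.5.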

How the data were processed

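Each library was deposited by the authors as a matrix of raw UMI counts per gene and barcode. The files list 33538 genes, per the file headers. Cell Ranger 3.1.0 and the GRCh38 build are named in the submitters' processing notes, with no further settings given. The library totals were 239857346 UMIs for control and 155064055 for knockdown. Cells with at least 15000 UMIs and at most 20% mitochondrial UMIs were kept, and doublets were not removed. Counts were summed over cells, divided by the group's total and compared as log2 ratios after adding 0.5 counts, with exact conditional binomial 95% intervals, using Python 3.11.15, numpy 2.4.6, scipy 1.17.1 and pandas 2.3.3. The size rule was tested on simulated data. No test was made, since cells are not replicates and each group is 1 library. Mouse reads were not analysed here.

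Named genes were the 15 called genes per direction with the largest ratio and at least 50 CPM in the higher group, leaving out mitochondrial, clone-based and pseudogene-like names, plus up to 4 genes per list, every measured gene of the granule, kinin and neighbour lists, VGF and GANAB. The cells and all 38 gene lists were chosen with earlier results of these data known, and 3 of the lists, MHC class I and MAGE among them, after these values were seen. Some genes that the rule names are not reported here. Positions come from GENCODE annotation of GRCh38, matched for 33456 genes.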

Additional observations from a re-analysis of the deposited data

Results flagged for a closer look

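G0S2 differed in direction between the libraries. Its log2 ratio of the top 10% by VGF over cells without VGF was -3.80 in the control library and 3.23 in the knockdown library, where it was 182 against 19.3 CPM. DLC1 had a log2 ratio of 1.34 in the control library and -0.81 in the knockdown library, where it was 16.0 against 28.0 CPM. In both cases the difference between libraries was not tested, since there is 1 library of each. The threshold for the top 10% was 789.7 CPM in control and 63.9 CPM in knockdown cells, so the groups hold different VGF levels.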

How the results depend on the processing

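Of 18 alternatives for the control contrast, 4 were chosen after seeing the data: the band below the threshold, cells of 30000 to 50000 UMIs, and the cells under and from 2.7% of UMIs from the lower stretches. The 398 higher and 411 lower genes became 104 and 120 at a minimum of 50 CPM, 917 and 1059 at 1 CPM, 136 and 208 over all cells that were not VGF-high, and 23 and 50 over the band below. There were 1201 lower genes under 2.7% and 180 higher genes from 2.7% up. Scaling to the median ratio gave 279 higher and 534 lower, so that higher genes were 34.3% of calls in place of 49.2%. All other alternatives left both counts within 1.5 times. The knockdown counts of 1325 and 1081 became 614 and 218 for the 4 cells at or above the control threshold, 406 and 707 in non-cycling cells, 610 and 303 at 50 CPM, and 749 and 687 after thinning.

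All 30 named genes kept their call under 11 alternatives. Over all cells that were not VGF-high 25 kept it, and MAGEA4, POLR3G, MME and MCM6 were among those that did not. After thinning to 15000 UMIs 28 kept it, and MME and MCM6 did not. The fewest, 8, kept it over the band below, where the log2 ratios of BCL2A1, POLR3G and SOX4 were -0.0094, -0.036 and 0.412. MCM6 was -0.022 from 2.7% up. The extracellular matrix median was 0.0795 in cycling cells. The cause of these shifts was not tested. No paired analysis was possible because each genotype has 1 library, and the VGF-high and zero-VGF cells compared come from the same library. Low genes are limited by depth: 10 CPM is about 196 UMIs over the VGF-high cells.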
